A study of Rattus norvegicus with 9 samples.

Results

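The heat shock proteins and J-domain chaperones were followed in the amygdala of ovariectomized, spontaneously hypertensive rats with and without estradiol. The members were all probes whose gene name begins with Hspa, Hspb, Hspd, Hspe, Hsph, Hsp90 or Dnaj, apart from Hspbap1. This gave 103 probes of 73 genes, out of 45598 probes with 34912 names on the array. They comprise 20 probes of 13 Hspa genes, 7 of 3 Hsp90 genes, 6 of the 3 genes Hspd1, Hspe1 and Hsph1, 10 of 9 Hspb genes, 5 of 4 Dnaja genes, 17 of 13 Dnajb genes and 38 of 28 Dnajc genes. The Hspb prefix also takes in Hspbp1, which encodes a nucleotide exchange factor for Hsp70, and Hspb11, whose product belongs to the intraflagellar transport machinery.

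The 5 rats labelled OV+E2 were females of the SHR strain that had lost both ovaries at 4 weeks of age and later carried a subcutaneous minipump releasing 2 μg of estradiol per day in PEG for a month. The 4 rats labelled OV (replicates 1, 2, 3 and 5) had the same strain, sex and surgery and a pump with PEG alone. Rats of both groups were 9 weeks old at collection, and neither an intact female nor a normotensive strain was part of the comparison. The amygdala of both sides was dissected from each rat, and 200 ng of its total RNA was hybridised to 1 single-colour oligonucleotide array.

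Heat shock proteins are molecular chaperones that bind unfolded stretches of other proteins. Hsp70 proteins, encoded by the Hspa genes, work in cycles of ATP hydrolysis that J-domain proteins start and exchange factors end, while Hsp90 proteins act later, on kinases and on steroid hormone receptors, the oestrogen receptor among them. In the endoplasmic reticulum (ER) the Hsp70 member is Hspa5, and in mitochondria it is Hspa9. In neurons, J-domain proteins also serve the synaptic vesicle and the removal of clathrin coats. Many of the cytosolic members are induced by heat shock factor 1, and the ER members by the unfolded protein response.

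Values below are log2 signals relative to the 75th percentile of the same array, and a difference is always OV+E2 minus OV. The 75th percentile lay at a signal of 556.8 to 737.6 on 8 arrays and at 129.7 on OV replicate 3. That array had 24230 probes well above background, against 29055 to 31398 on the others, and its mean correlation with the other arrays was 0.932, against 0.981 to 0.984. In the authors' own value table the column of this rat does not follow its scanner file. The log2 ratio of table to file had an SD of 1.00 over probes there, against 0.00417 to 0.0307 on the other arrays. Results are therefore given with all arrays and without OV replicate 3. The arrays came from 2 slides: slide 1 held OV+E2 replicates 1 and 2 with OV replicates 1, 2 and 3, and slide 2 held OV+E2 replicates 3, 4 and 5 with OV replicate 5. A difference within slide 2 therefore rests on 1 OV rat, and one within slide 1 includes OV replicate 3. All 8 neuron marker genes, all 7 astrocyte and all 6 oligodendrocyte marker genes were above background on all arrays, as were 4 of 5 genes listed for the amygdala region (Rspo2 was above it on 3).

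Of the 103 member probes, 95 probes of 66 genes were well above background on at least 4 arrays and were tested among 30215 probes. The probes of Hspa1b, Hspa1l, Hspb3, Hspb7, Dnajb7, Dnajc5b and Dnajc5g were not. They were above background on 0 to 2 arrays each, so that the classic stress-inducible pair was represented by Hspa1a alone.

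No member passed an adjusted p of 0.05 by limma with Benjamini-Hochberg adjustment over all tested probes, and neither did any other probe (0% of 30215). The smallest adjusted p of a member was 0.251, that of Hspa1a, and it was 0.145 without OV replicate 3. At an unadjusted p under 0.05 there were 6 member probes with higher signal in OV+E2 rats, 6.32% of those tested against 3.21% of all probes, and 5 with lower signal, 5.26% against 7.17%. In 4 member probes every OV+E2 rat lay above every OV rat, and in 4 every one lay below, 4.21% each. Over all probes these shares were 2.89% and 4.02%. Without OV replicate 3 the counts were 7 higher and 5 lower at an unadjusted p under 0.05, beside 5.86% and 8.26% of all probes. The groups then stood apart in 5 member probes upward and 4 downward, beside 5.02% and 5.43% of all probes. With limma's array weights, which give arrays that deviate less say, 8 member probes (8.42%) passed the adjusted threshold among 11.6% of all probes, so the count of calls depends on the weighting of the arrays. With weights and without that array, 0 members passed and the smallest adjusted p was 0.0688.

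The median difference over the tested members was 0.10, beside 0.00 over all probes, and 59 of 95 differences (62.1%) were positive, beside 50.2% of all probes. Without OV replicate 3 the median was 0.06, beside 0.01, with 64 positive differences. Of the 6 higher probes at an unadjusted p under 0.05, 5 were of Hspa genes and 1 of Dnajb1, and the 5 lower ones were 2 of Hspb2 and 3 of Dnajc genes. No difference between families was tested.

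**Figure D1:**
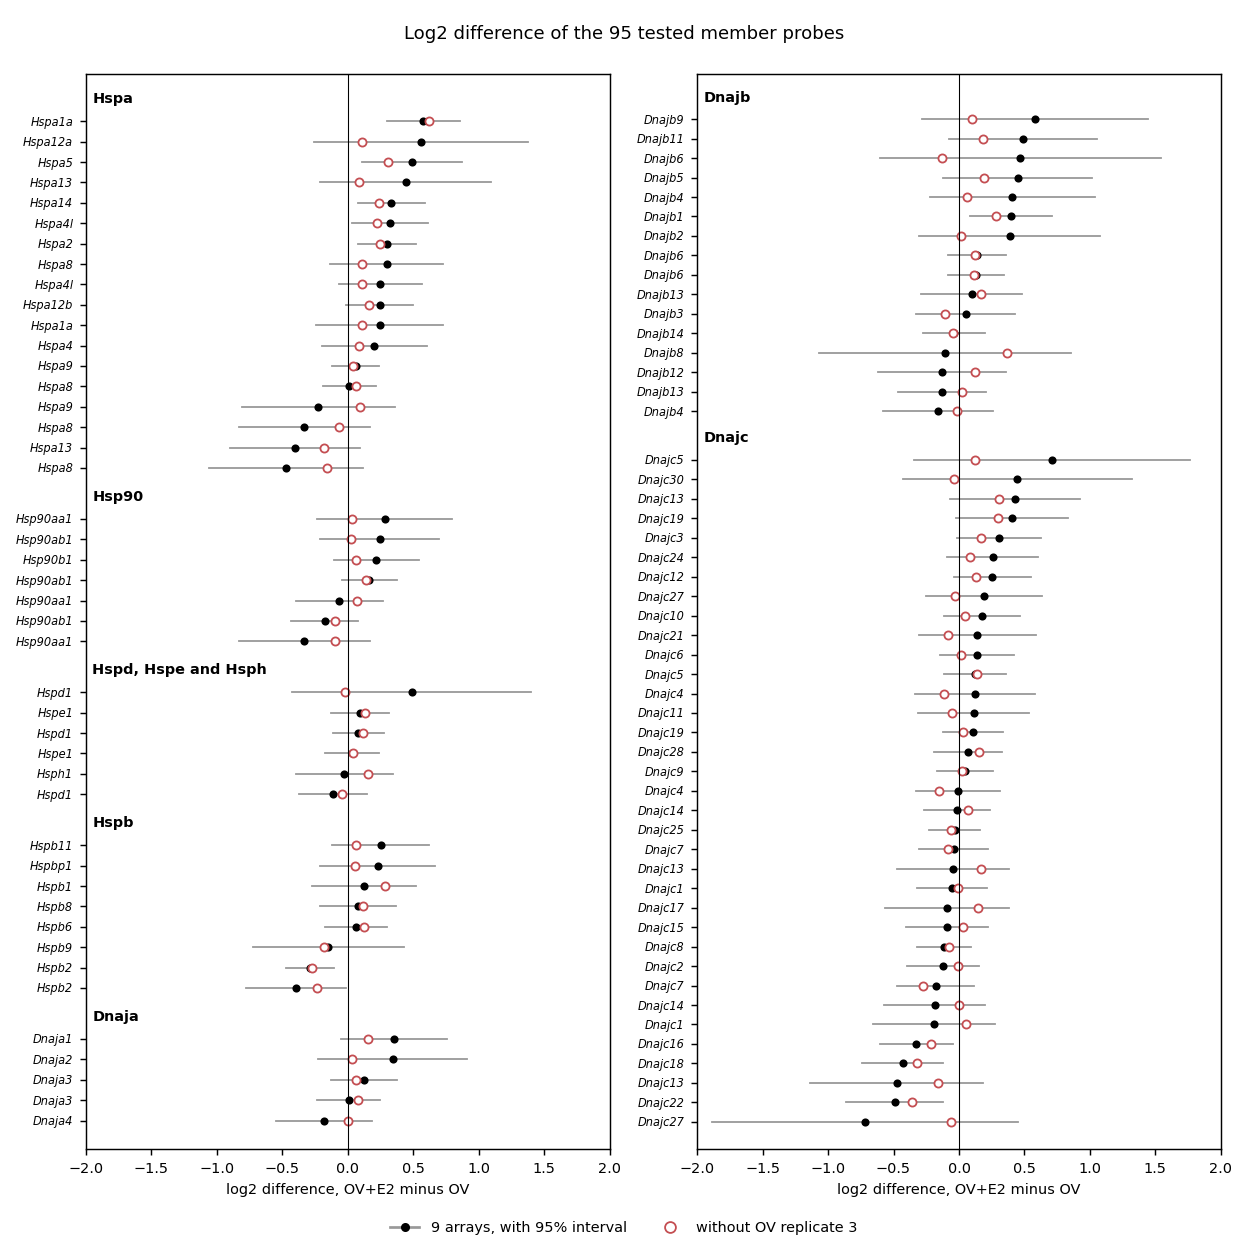
Log2 difference (OV+E2 minus OV, horizontal axis) of each of the 95 tested member probes, sorted within each gene name prefix. Filled points with grey 95% intervals use all 9 arrays and open red circles leave out OV replicate 3; most Hspa points lie right of 0, and most open circles lie nearer to 0 than the filled point of the same probe.

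With all arrays the Hspa genes had the highest median difference of the families, 0.25 over 18 probes, of which 14 were positive. The median was 0.108 without OV replicate 3, with 15 positive, and that of the Dnajb probes was then 0.106. In the authors' values the Hspa and Dnajb medians were 0.125 and 0.111, and within slide 2 they were 0.150 and 0.169. Hspa1a, the stress-inducible cytosolic Hsp70, had the smallest p of all members. Its brighter probe (chr20:3958289-3958348, rat build rn4, plus strand) read −0.33, −0.16, −0.41, −0.06 and 0.02 in the OV+E2 rats, against −0.66, −0.79, −0.64 and −0.97 in the OV rats. Every OV+E2 rat was above every OV rat, and OV replicate 3 lay close to OV replicate 1. The means were −0.19 ± 0.18 in OV+E2 rats (SD, n = 5) and −0.77 ± 0.15 in OV rats (SD, n = 4). The difference was 0.58 ± 0.12 (SE), a 1.49-fold higher signal, with a 95% interval of 0.30 to 0.85, an unadjusted p of 0.00108 and an adjusted p of 0.251 by limma. The difference was 0.62 without OV replicate 3, 0.45 within slide 1 and 0.83 within slide 2.

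A second, dimmer Hspa1a probe on the same strand (chr20:3956838-3956897) gave 0.24 ± 0.22 (SE) and 0.11 without OV replicate 3, and its groups overlapped. The Hspa1b probe lies on that strand at chr20:3959493-3959552 and was above background on 0 of 9 arrays. Hspa1a and Hspa1b have near-identical coding sequences, so RNA of one can bind a probe of the other, and the Hspa1a values are uncertain to that extent.

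Hspa2, an Hsp70 that is abundant in testis and is also made in brain, had one probe (chr6:99002319-99002378). It read −0.06, −0.19, 0.06, −0.05 and −0.01 in OV+E2 rats, against −0.16, −0.34, −0.51 and −0.39 in OV rats. The groups overlapped by 1 pair of rats. The difference was 0.30 ± 0.10 (SE; unadjusted p = 0.0142 and adjusted p = 0.354 by limma), and 0.25 without OV replicate 3. Hspa14, a cytosolic Hsp70 that in human cells forms the ribosome-associated complex with Dnajc2, read 2.20, 2.17, 2.09, 2.20 and 2.21 in OV+E2 rats, against 2.09, 1.88, 1.56 and 1.84 in OV rats. The lowest OV+E2 rat was just above the highest OV rat. The difference was 0.33 ± 0.11 (SE; unadjusted p = 0.0159 and adjusted p = 0.367 by limma), 0.24 without OV replicate 3, 0.34 within slide 1 and 0.33 within slide 2. Hspa4l, an Hsp110-type exchange factor for Hsp70, had probes at 0.32 and 0.25, of which the first had an unadjusted p of 0.0345 and stood apart between groups. They were at 0.22 and 0.11 without OV replicate 3.

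**Figure D2:**
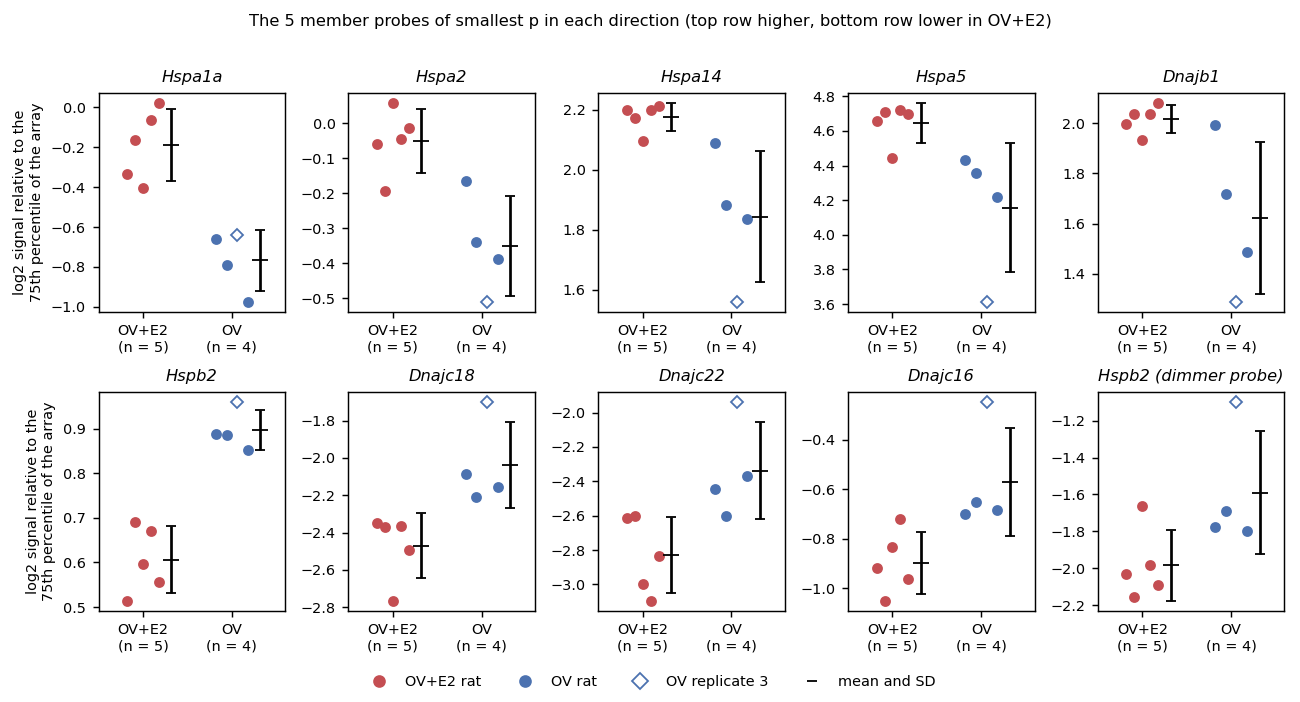
Log2 signal relative to the 75th percentile of the array (vertical axes, a separate range in each panel) in each rat, for the 5 member probes of smallest unadjusted p with higher signal in OV+E2 rats (top row) and the 5 with lower signal (bottom row). Red points are OV+E2 rats, blue points OV rats, the open diamond is OV replicate 3 and bars are mean and SD; the diamond is the OV rat farthest from the OV+E2 mean in every panel but that of Hspa1a.

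The constitutive Hsp70, Hspa8, was bright on every array, and its 4 probes did not give one answer. They differed by −0.47, −0.33, 0.01 and 0.30, and without OV replicate 3 by −0.16, −0.07, 0.06 and 0.11. On the brightest probe (chr8:43787677-43787736) the OV+E2 rats read 8.47, 8.56, 8.47, 8.44 and 8.33, against 8.48, 8.65, 9.58 and 8.44 in OV rats. The groups overlapped, and OV replicate 3 stood above all other rats. That probe overlaps another Hspa8 probe on the array by position, and Hspa8 has many processed copies in rodent genomes, which the array may not tell from the gene. The Hsp110-type member Hspa4 differed by 0.20 ± 0.18 (SE) and by 0.09 without OV replicate 3. Hspa12a, a distant relative of Hsp70 that is abundant in brain, differed by 0.56 with all arrays and by 0.11 without OV replicate 3, whose value of 0.71 lay far under the 2.40 to 2.73 of the other OV rats. Mitochondrial Hspa9 differed by 0.06 ± 0.08 (SE) on its brighter probe, with a residual SD lower than that of all but 0.8% of tested probes, and by −0.23 on a second probe that read 2.71 in OV replicate 3 against 1.35 to 1.56 in the other rats. Without that rat the differences were 0.04 and 0.09.

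In the ER, Hspa5 (also called BiP or Grp78), the Hsp70 that holds the sensors of the unfolded protein response inactive, read 4.66, 4.71, 4.45, 4.72 and 4.70 in OV+E2 rats, against 4.43, 4.36, 3.61 and 4.22 in OV rats (chr3:13787739-13787798). Every OV+E2 rat was above every OV rat, with OV+E2 replicate 3 and OV replicate 1 nearly touching. The difference was 0.49 ± 0.17 (SE), a 1.41-fold higher signal, with an unadjusted p of 0.0169 and an adjusted p of 0.373 by limma. Without OV replicate 3 the difference was 0.31 with a 95% interval of 0.11 to 0.51. It was 0.55 within slide 1 and 0.40 within slide 2.

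The other ER members were less clear. Of the 10 probes of the 8 genes on the list of ER members, 7 were positive, with a median of 0.26, but the median was 0.08 without OV replicate 3, and on that list Hspa5 alone had an unadjusted p under 0.05 with all arrays. Dnajc18, described with the Dnajc genes, is also an ER protein but was not on the list, and it had lower signal in OV+E2 rats (−0.43). Hsp90b1, the ER form of Hsp90, differed by 0.22 ± 0.15 (SE) and by 0.07 without that rat. Dnajc3, an ER protein that restrains the kinase Perk, read 0.61, 0.64, 0.30, 0.41 and 0.48 in OV+E2 rats, against 0.34, 0.26, −0.23 and 0.35 in OV rats. Its difference was 0.31 ± 0.14 (SE) and 0.17 without OV replicate 3, and the groups overlapped either way. Dnajb11, a J-domain partner of Hspa5, differed by 0.49 with all arrays and by 0.19 without OV replicate 3 (unadjusted p = 0.0392 by limma). Dnajb9, which aids the degradation of misfolded ER proteins, differed by 0.58 and 0.10. Hspa13 had 2 probes of opposite sign, 0.44 and −0.40, and 0.09 and −0.18 without OV replicate 3.

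The start sites of Hspa5, Hsp90b1 and Dnajc3 carry the letters of the ER stress response element, the textbook binding site of the unfolded protein response. RefSeq promoter sequences on build GRCr8 matched 58 of the 73 member genes, and the 250 bases before each start were searched on both strands. The element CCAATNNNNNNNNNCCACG was in these 3 member promoters (5.17% of 58) and in 0.0657% of 33469 promoters of the table. The stretches around it are given because Hspa5, the gene of smallest p on the list of ER members, shares this element with members whose groups overlapped. Capitals mark the element, which in Hsp90b1 reads on the other strand. The stretches are chr3:38452958-38453006 (plus strand), chr7:23012332-23012380 (minus strand) and chr15:102432519-102432567 (plus strand).
Hspa5: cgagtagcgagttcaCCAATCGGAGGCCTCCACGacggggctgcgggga
Hsp90b1: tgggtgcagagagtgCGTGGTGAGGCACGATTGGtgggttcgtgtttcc
Dnajc3: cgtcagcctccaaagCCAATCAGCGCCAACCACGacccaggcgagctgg
A match is a match of letters only. An oestrogen response element of the form GGTCANNNTGACC was in 0 of the 58 member windows and in 0.0239% of all windows, which says only that these letters are not in these windows.

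The cytosolic Hsp90 genes had no probe at an unadjusted p under 0.05. Hsp90aa1, the inducible form, had differences of 0.28 and −0.06 on the probes of its own strand, and of 0.03 and 0.07 without OV replicate 3. A further probe carrying its name is annotated on the opposite strand and gave −0.33 and −0.10. Hsp90ab1, the constitutive form, read 6.79, 6.87, 6.82, 6.82 and 6.90 in OV+E2 rats on its brightest probe, against 6.88, 6.68, 6.60 and 6.55 in OV rats. The groups overlapped through OV replicate 1. The difference was 0.16 ± 0.09 (SE), with a 95% interval of −0.05 to 0.37, and 0.14 without OV replicate 3. Its other probes differed by 0.24 and by −0.18 (the second fitted without OV replicate 1, whose spot had no value), and by 0.02 and −0.10 without OV replicate 3. The median of the 7 Hsp90 probes was 0.16, and 0.03 without OV replicate 3.

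Partners of Hsp90 and Hsp70 outside the name rule were read beside them, from lists written with earlier results of these data known. Among 24 tested probes of 20 cochaperone genes, 5 had higher signal at an unadjusted p under 0.05 and 1 had lower signal, and 5 stood apart between groups upward and 1 downward. Over all probes the shares were 3.21% and 7.17% at that p, and 2.89% and 4.02% apart. None passed an adjusted p of 0.05. Chordc1, an Hsp90 partner also known as morgana, read 3.15, 3.33, 3.11, 3.20 and 3.37 in OV+E2 rats, against 2.87, 2.81, 2.12 and 2.76 in OV rats. All OV+E2 rats were higher, also without OV replicate 3, where the difference was 0.41 in place of 0.59 ± 0.16 (SE; adjusted p = 0.282 by limma). The other 4 were named after their values were seen, because they are few. Stip1 (Hop), which joins Hsp70 to Hsp90, differed by 0.45, and by 0.28 without OV replicate 3. The Hsp90-bound immunophilin Fkbp5 and a probe of another, Ppid, differed by 0.29 and 0.30, and by 0.34 and 0.25 without it. Further Ppid probes differed by 0.14 and 0.43, and by 0.04 and 0.17 without OV replicate 3. Of these, only the second stood apart between groups. Ptges3 (p23), which closes Hsp90 on its clients, differed by 0.20, and by 0.17 without OV replicate 3, with overlapping groups.

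The lower one was a probe of Unc45a, a myosin chaperone. It differed by −2.91, but by −0.80 within slide 1 and −4.85 within slide 2, it was above background in 2 of 5 OV+E2 rats and 4 of 4 OV rats, and the gene's other probe differed by 0.04. The 2 probes differed by −2.78 and −0.01 without OV replicate 3. The regulators Hsf1, Hsf2, Hsf4 and Hsbp1 had 0 of 5 probes at an unadjusted p under 0.05, and 1 without OV replicate 3. That was Hsf2, which differed by −0.09 with all arrays and by −0.21 without it (unadjusted p = 0.0189 by limma), where every OV+E2 rat was below every OV rat. Hsf1, the main heat shock factor, differed by 0.12 and 0.09 on its 2 probes (0.07 and 0.14 without OV replicate 3), and Hsbp1, which binds it, by 0.30 with all arrays and 0.00 without OV replicate 3. The cytosolic chaperonin had 0 of 10 probes at that threshold, and 1 without OV replicate 3. That was Cct8, which differed by 0.12 and by 0.18 without it (unadjusted p = 0.0269 by limma), where every OV+E2 rat was above every OV rat. Its subunits Cct2 and Cct5 differed by 0.43 and 0.52, and by 0.15 and 0.07 without OV replicate 3.

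The mitochondrial chaperonin Hspd1 (Hsp60), its lid Hspe1 (Hsp10) and the Hsp110 protein Hsph1 had 0 of 6 probes at an unadjusted p under 0.05, with a median of 0.05, and 0.08 without OV replicate 3. Hspd1 read 4.76, 4.82, 4.62, 4.71 and 4.75 in OV+E2 rats on its brightest probe, against 4.63, 4.68, 4.76 and 4.55 in OV rats. The 2 groups overlapped, and the interval of the difference ran from −0.12 to 0.27, and from −0.04 to 0.27 without OV replicate 3. The differences of the 3 Hspd1 probes were unlike in sign, from −0.11 to 0.49, and from −0.04 to 0.11 without OV replicate 3. Hspe1 differed by 0.09 ± 0.10 (SE) and 0.03 ± 0.09 on 2 probes that overlap by position, and by 0.13 and 0.04 without OV replicate 3. Over 13 probes of 7 mitochondrial members, which include the J-domain proteins Dnaja3, Dnajc11, Dnajc15 and Dnajc19, none had an unadjusted p under 0.05 with or without OV replicate 3.

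Hsph1 changed sign with that array. It read 0.48, 0.52, 0.45, 0.62 and 0.57 in OV+E2 rats, against 0.36, 0.44, 1.11 and 0.31 in OV rats. OV replicate 3 was the highest of all 9 rats, while the other OV rats were below every OV+E2 rat. The difference was −0.03 ± 0.16 (SE) with it and 0.16 without it (unadjusted p = 0.0433 and adjusted p = 0.334 by limma).

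Among 21 tested probes of textbook targets of heat shock factor 1 in the family (Hspa1a, Hspa8, Hspb1, Hsph1, Hsp90aa1, Hsp90ab1, Hspd1, Hspe1, Dnaja1 and Dnajb1), 14 were positive with a median of 0.09, and 15 with a median of 0.07 without OV replicate 3. The brighter Hspa1a probe and the Dnajb1 probe had an unadjusted p under 0.05. The heat shock element is built of inverted repeats of GAA. A pair of units, GAANNTTC, was in 22.4% of the 58 member windows and in 7.23% of all windows, and the opposite order, TTCNNGAA, in 12.1% and 7.48%. The 3-unit form GAANNTTCNNGAA, which contains both pairs, was in the windows of 4 members, Hspa8, Hspd1, Hspe1 and Hsph1 (6.90%), and in 0.663% of all windows. Hspd1 and Hspe1 start 290 bases apart on opposite strands of chromosome 9 and share 1 stretch of this kind, and Hspa8 has a second match further upstream, which is not shown. The stretches below show the 3-unit element in members with overlapping groups, and the pairs in Dnajb1 and Hspb1. Capitals mark all letters within a match, and overlapping matches run together.
Hspe1: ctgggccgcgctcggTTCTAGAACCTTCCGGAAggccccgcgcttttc
Hspa8: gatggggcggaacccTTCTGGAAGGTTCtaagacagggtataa
Hsph1: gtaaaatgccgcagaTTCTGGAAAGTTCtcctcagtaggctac
Dnajb1: gcatcgggaggggcgGAAGGTTCtgg
Hspb1: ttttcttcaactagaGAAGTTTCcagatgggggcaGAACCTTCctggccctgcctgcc
On GRCr8 these lie at chr9:64084247-64084294 (plus strand), chr8:50080444-50080486 (plus), chr12:10427317-10427359 (plus), chr19:41431142-41431167 (minus) and chr12:26432388-26432445 (minus).

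The small heat shock proteins of the Hspb genes hold unfolding proteins until Hsp70 takes them over. Their 8 tested probes had a median difference of 0.07, and 0.06 without OV replicate 3. Hspb2, a small heat shock protein best known from heart and skeletal muscle, gave both lower probes. The brighter one (chr8:54105825-54105884, minus strand) read 0.51, 0.69, 0.60, 0.67 and 0.56 in OV+E2 rats, against 0.89, 0.89, 0.96 and 0.85 in OV rats. Every OV+E2 rat was below every OV rat, and the OV rats lay close together, OV replicate 3 included. The difference was −0.29 ± 0.08 (SE), with a 95% interval of −0.47 to −0.11, an unadjusted p of 0.00569 and an adjusted p of 0.289 by limma. It was −0.27 without OV replicate 3, −0.31 within slide 1 and −0.24 within slide 2. The residual SD of this probe was lower than that of all but 1.5% of tested probes. The dimmer probe (chr8:54105608-54105667) differed by −0.40 ± 0.17 (SE), and by −0.23 without OV replicate 3, with overlapping groups.

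Cryab, which encodes the small heat shock protein alpha B-crystallin and is outside the name rule, is the neighbour of Hspb2. Its probe lies 5512 bases from the brighter Hspb2 probe and on the other strand (chr8:54111396-54111455, plus strand). It read 5.66, 5.97, 4.94, 5.42 and 5.41 in OV+E2 rats, against 5.14, 5.24, 5.59 and 4.75 in OV rats. The groups overlapped widely and the difference was 0.30 ± 0.23 (SE), and 0.44 without OV replicate 3, opposite in sign to Hspb2. The other alpha crystallin, Cryaa of the eye lens, was dim and had lower signal in OV+E2 rats by 1.52 on the log2 scale (a difference of −1.52 ± 0.32, SE; adjusted p = 0.251 by limma). It was above background in 4 of 5 OV+E2 rats and 4 of 4 OV rats. Its difference was −0.83 with normexp background correction, −1.43 without OV replicate 3, −0.95 within slide 1 and −2.27 within slide 2.

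Hspb1 (Hsp27), induced in reactive astrocytes and injured neurons, read 0.78, 1.07, 0.60, 1.11 and 1.06 in OV+E2 rats, against 0.72, 0.60, 1.29 and 0.59 in OV rats. OV replicate 3 was the highest rat. The difference was 0.12 ± 0.18 (SE), and 0.29 without that rat, with a 95% interval of −0.01 to 0.58. Hspb6, a small heat shock protein of muscle, differed by 0.06 ± 0.11 (SE), and Hspb8, which works with the cochaperone Bag3 in autophagy, by 0.08 ± 0.13 (SE). Leaving out OV replicate 3 gave 0.13 and 0.12. Hspbp1 and Hspb11 differed by 0.23 and 0.25, and by 0.06 and 0.07 without OV replicate 3.

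J-domain proteins start the ATPase cycle of Hsp70 and choose its substrates. The 5 Dnaja probes had a median difference of 0.12 and the 16 Dnajb probes one of 0.13, with 0 and 1 probe at an unadjusted p under 0.05. Without OV replicate 3 the medians were 0.07 and 0.11. Dnajb1 (Hsp40), the main J-domain partner of inducible Hsp70, read 2.00, 2.04, 1.93, 2.04 and 2.08 in OV+E2 rats, against 1.99, 1.72, 1.29 and 1.49 in OV rats. The OV+E2 rats lay within a narrow band that the highest OV rat reached, while the other OV rats were lower. The difference was 0.40 ± 0.14 (SE), a 1.32-fold higher signal, with an unadjusted p of 0.0192 and an adjusted p of 0.380 by limma. It was 0.28 without OV replicate 3, 0.35 within slide 1 and 0.53 within slide 2. Dnaja1, a farnesylated partner of Hsc70, differed by 0.35 ± 0.18 (SE) and by 0.15 without OV replicate 3.

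Dnajb2, which is enriched in neurons, and Dnajb6 act against the aggregation of proteins. Dnajb2 differed by 0.39 and Dnajb5 by 0.45, and without OV replicate 3 by 0.01 and 0.19. Dnajb6 differed by 0.13 ± 0.10 (SE) on its brightest probe, and 0.11 without that array. Its other probes, which overlap this one by position, differed by 0.14 and 0.47, and by 0.12 and −0.13 without OV replicate 3.

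The Dnajc genes are the most varied group and share little beyond the J domain. Their 35 tested probes had a median difference of −0.01 and, without OV replicate 3, 0.00, with 17 positive and 18 negative. None had higher signal at an unadjusted p under 0.05, beside 3.21% of all probes, and 3 (8.57%) had lower signal, beside 7.17%. Without OV replicate 3 a probe of Dnajc7, a partner of Hsp70 and Hsp90, joined these 3 at −0.27 (unadjusted p = 0.0314 by limma). The other Dnajc7 probe differed by −0.08 without that array. The lower share was then 11.4%, beside 8.26% of all probes. In the first 3 every OV+E2 rat was below every OV rat, and they stayed apart without OV replicate 3. Such downward separation was seen in 4.02% of all probes, and in 5.43% without that array, beside 8.57% of Dnajc probes. Dnajc18, a membrane protein of the ER, read −2.35, −2.37, −2.76, −2.37 and −2.50 in OV+E2 rats, against −2.09, −2.21, −1.70 and −2.16 in OV rats. The difference was −0.43 ± 0.14 (SE; unadjusted p = 0.0122 and adjusted p = 0.336 by limma), and −0.32 without OV replicate 3.

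Dnajc22, whose Drosophila counterpart wurst acts in clathrin-mediated endocytosis, read −2.61, −2.60, −3.00, −3.09 and −2.83 in OV+E2 rats, against −2.45, −2.60, −1.94 and −2.37 in OV rats. The groups nearly touched at −2.60. The difference was −0.49 ± 0.16 (SE; unadjusted p = 0.0151 and adjusted p = 0.361 by limma), −0.36 without OV replicate 3, −0.28 within slide 1 and −0.61 within slide 2. Dnajc16 read −0.92, −1.05, −0.83, −0.72 and −0.96 in OV+E2 rats, against −0.70, −0.65, −0.25 and −0.69 in OV rats. OV replicate 3 was again the farthest, and the remaining OV rats were close to the highest OV+E2 rat. The difference was −0.33 ± 0.12 (SE; unadjusted p = 0.0270 and adjusted p = 0.418 by limma), −0.22 without OV replicate 3, −0.45 within slide 1 and −0.15 within slide 2.

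A list for the synaptic vesicle and clathrin held the J-domain genes Dnajc5, Dnajc6 and Dnajc13 and the Hsp70 gene Hspa8. Among its 10 probes none had an unadjusted p under 0.05, and none stood apart between groups. Over all probes 3.21% had higher and 7.17% lower signal at that p, so few calls would be met among 10 probes in any case. Dnajc5, the cysteine string protein of synaptic vesicles, differed by 0.71 ± 0.47 (SE) on the brighter probe, where OV replicate 3 read −0.96 and all other rats 1.17 to 1.66. It differed by 0.12 on the second probe, and by 0.12 and 0.13 on the 2 probes without OV replicate 3. Dnajc6 (auxilin), which recruits Hsc70 to clathrin-coated vesicles, differed by 0.14 ± 0.13 (SE), and by 0.01 without OV replicate 3, with a 95% interval of −0.14 to 0.17. Dnajc13, an endosomal J-domain protein, gave 0.43, −0.04 and −0.48 on 3 probes, and 0.31, 0.17 and −0.16 without OV replicate 3.

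**Figure D3:**
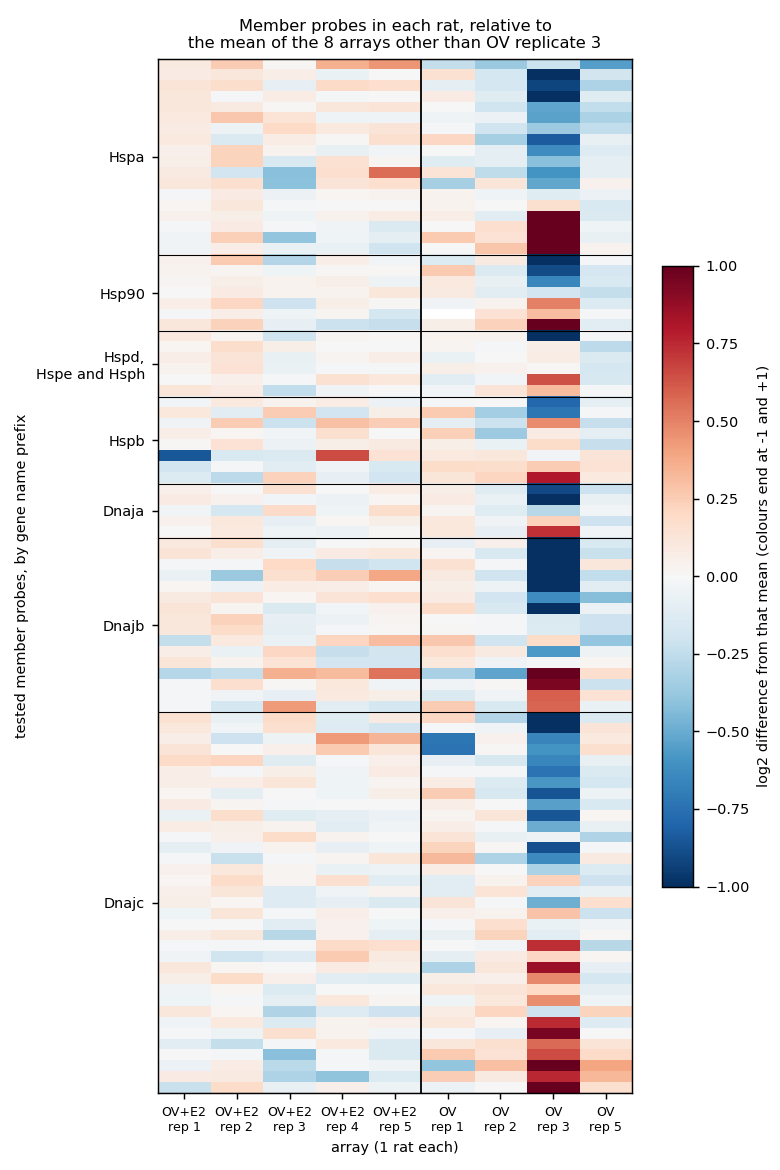
Each row is a tested member probe, grouped by gene name prefix and sorted within it by its difference, and each column is a rat, OV+E2 on the left and OV on the right. Colour is the log2 signal minus the mean of the 8 arrays other than OV replicate 3, and ends at −1 and +1; OV replicate 3 is the rat farthest from that mean in 75 of 95 rows.

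Genes with several probes show how far OV replicate 3 sets the differences. For 22 member genes, 51 probes were tested, 2 to 4 for each. The range between the highest and lowest difference of a gene's probes had a median of 0.317 with all arrays and of 0.130 without OV replicate 3, and it was narrower without it in 18 of 22 genes. For 5358 other genes with several probes the medians were 0.320 and 0.163, and 74.5% were narrower. The probes of a gene differed in sign in 11 of the 22 genes with all arrays and in 9 without OV replicate 3. Dnajc27 had probes at −0.72 and 0.19, and at −0.06 and −0.03 without OV replicate 3. Hspa1a went the other way, with a range of 0.335 with all arrays and of 0.508 without OV replicate 3, which was then the widest of the 22. Probes of 3 of the genes (Dnajb6, Hspa8 and Hspe1) overlap by position and are not separate measurements.

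**Figure D4:**
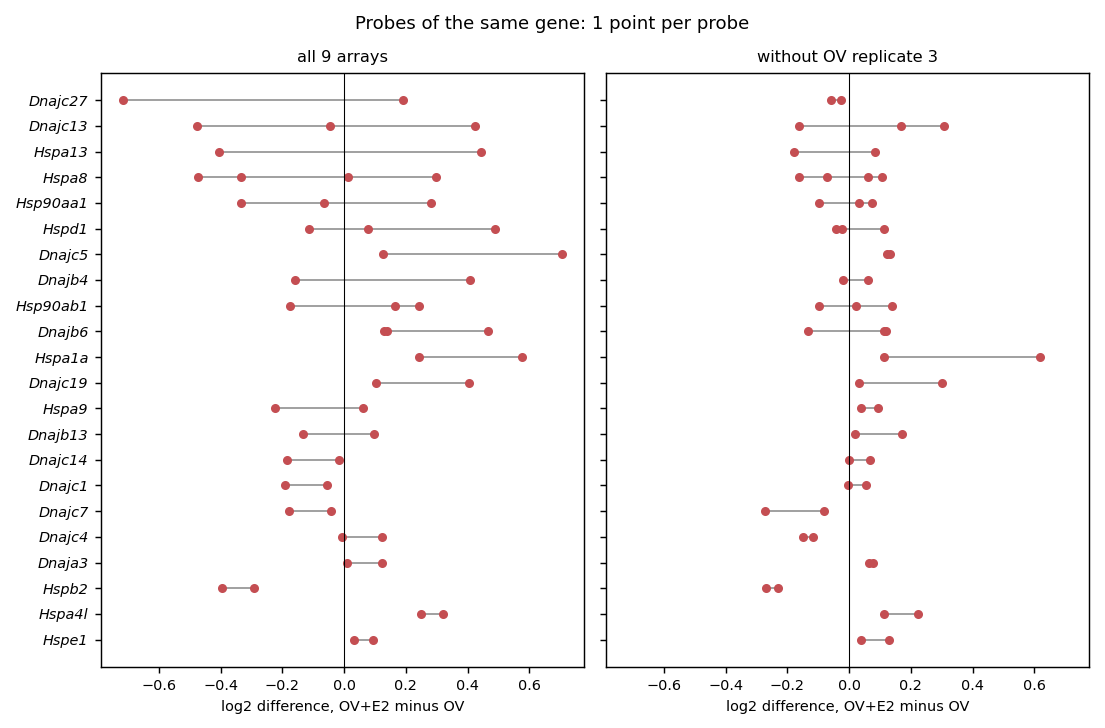
Log2 difference (OV+E2 minus OV, horizontal axis) of every tested probe of the 22 member genes with more than 1, with all 9 arrays on the left and without OV replicate 3 on the right. Points of a gene are joined by a line; the lines shorten in 18 of 22 genes without that array, and Hspa1a is then the widest, at 0.508.

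The median residual SD of the members was 0.249, beside 0.281 over all probes, and without OV replicate 3 it was 0.117, beside 0.151.

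Markers of other cell types were also read in these rats, and none passed an adjusted p of 0.05. Over all probes, 7.17% had lower and 3.21% higher signal in OV+E2 rats at an unadjusted p under 0.05. At that p, 4 of 8 tested microglia probes had lower signal in OV+E2 rats. The summed microglia signal, in units of each array's 75th percentile, was 16.4 to 19.9 in OV+E2 rats and 21.6 to 37.4 in OV rats. The OV range was 21.6 to 28.9 without OV replicate 3, and all 6 genes were above background on all arrays. Of 6 meningeal fibroblast probes 4 were lower, with sums of 14.9 to 17.7 in OV+E2 rats and 18.2 to 23.9 in OV rats (Lum was above background on 8 arrays). Of 5 tested blood probes 4 were lower, with sums of 1.32 to 1.47 in OV+E2 rats and 1.51 to 1.65 in OV rats. The OV range for blood was 1.61 to 1.65 without OV replicate 3. Of 14 endothelial probes 3 were lower and 1 higher, and of 7 pericyte and smooth muscle probes 1 was lower, with overlapping sums for both lists. Of 13 neuron probes 1 was higher and 1 lower, of 11 astrocyte probes 1 was lower, and of 14 oligodendrocyte probes 1 was lower and 10 had a negative difference. The sums were 178 to 191 in OV+E2 rats and 132 to 185 in OV rats for neurons, 205 to 240 in OV+E2 rats and 218 to 273 in OV rats for astrocytes, and 502 to 653 in OV+E2 rats and 597 to 1520 in OV rats for oligodendrocytes. Leaving out OV replicate 3 gave OV sums of 156 to 185 for neurons, 218 to 250 for astrocytes and 597 to 755 for oligodendrocytes. Choroid plexus and ependyma markers summed to 254 to 474 in OV+E2 rats and 11.8 to 749 in OV rats. Their OV range was 11.8 to 343 without OV replicate 3. The part of these cells in the lower Hspb2 and Dnajc signals, or in the higher Hspa signals, was not tested. In a whole dissected amygdala, fewer cells of a type and less RNA per cell cannot be told apart.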

How the data were processed

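Agilent rat arrays with a single Cy3 channel were used, 1 for each rat. The authors deposited their scanner output, and the intensity read here was its processed signal, from which the scanner software had already taken the background. That software was Feature Extraction, in version 10.7.3.1 per the file headers and 9.1 per the submitters' processing notes. Probe coordinates are those of rn4 per the file headers, and whether a probe lies in an exon or an untranslated region was not analysed here. Control spots (4259 of 62976) and outlier spots were left out, and spots of a probe were averaged. The log2 intensity, computed here from the deposited values, was centred on the 75th percentile of its array. Probes that 4 or more of the 9 arrays showed well above background were fitted with limma 3.58.1 in R 4.3.3 (lmFit and eBayes, group as the only term), with Benjamini-Hochberg adjustment over all 30215 tested probes and a threshold of 0.05. Scripts were tested on simulated data.

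The authors' value table, deposited as processed intensities with no scaling stated and put on a log2 scale here, was an alternative. For 8 arrays it differs from the scanner values by nearly a constant. Other alternatives were normexp with an offset of 50, median and quantile scaling, other filters, slide as a block, each slide alone, array weights, the brightest probe of a gene and each array left out. The members, gene lists and marker lists were chosen with earlier results of these data known. Genes named are a panel of 27 members, the 5 probes of smallest p in each direction and up to 2 genes of each outside list. Second probes and further genes were added after their values were seen. Replicate numbers were not used to pair the rats in the main fit. Deviations of equal numbers correlated at 0.170, −0.0761, −0.0110 and 0.105, and those of unequal numbers at −0.290 to 0.122. So few correlations cannot settle whether equal numbers mark a pair. Nothing in the labels says that a number marks a shared litter or day. Precision is limited by the number of arrays. Promoters came from RefSeq on GRCr8, of which only sequences and their coordinates were used.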

Additional observations from a re-analysis of the deposited data

Results flagged for a closer look

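Within the groups of the 31 tested probes named by the rule, 62 groups of 4 or 5 rats were checked for a rat far from the others by Dixon's criterion, which chance meets in about 1 of 20 groups. It was met 9 times, 6 of them by OV replicate 3. In log2 signal relative to the 75th percentile, that rat was the lowest of its group for Hspa12a at 0.7067 (the next OV rat read 2.40), for Dnajb9 at −1.71 (next 0.12) and for Dnajc3 at −0.2287 (next 0.26). It was the highest of its group for Hsph1 at 1.105 (next 0.44), for Dnajc16 at −0.2467 (next −0.65) and for the dimmer Hspb2 probe at −1.097 (next −1.69). These are values of its scanner file, which the authors' value table does not follow. In that table its log2 value was 9.81 for Dnajc3 and 8.68 for Dnajc16, within the 9.62 to 9.995 and 8.31 to 8.71 of the other 8. For Dnajb9 it was 9.35, under the 9.48 to 9.80 of the others. The remaining 3 were OV+E2 rats that were the lowest of their group: replicate 3 for Hspa4 at 3.567 (next 4.09) and for Hspa5 at 4.446 (next 4.66), and replicate 5 for Hsp90b1 at 2.907 (next 2.99).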

How the results depend on the processing

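The count of 0 members at an adjusted p under 0.05 held under all alternatives run except array weights, with smallest adjusted p values of 0.0530 to 0.859. Array weights gave 8 members, namely Hspa1a, Hspa2, Hspa5, Hspa14 and Dnajb1 higher and Hspb2, a probe of Dnajc7 and a probe of Hspa8 lower, and 30 at an unadjusted p under 0.05 (31.6%, beside 31.5% of all probes), where 11 stood with equal weights (11.6%, beside 10.4%). Combined with leaving out OV replicate 3, weights gave 19 at the unadjusted threshold (20.0%, beside 21.5%) and slide as a block gave 18 (18.9%, beside 15.6%), both chosen after seeing the data. That count was 1 within slide 1 (1.05%, beside 1.66%) and at most 19 when one array was left out, the 19 without OV replicate 1 (20.0%, beside 17.6%). The median of the Hspa probes was 0.108 to 0.338 with one array left out, and that of the Hsp90 probes 0.0308 to 0.231, the low ends without OV replicate 3. In the authors' values without it they were 0.108 and 0.0469. The Hsp90 median was 0.269 with normexp, 0.269 with median scaling, 0.00164 with weights and 0.0699 in the authors' values. Median scaling also gave medians of 0.203 for all members, 0.160 for Hspd1, Hspe1 and Hsph1, 0.175 for Hspb, 0.230 for Dnaja and 0.0997 for Dnajc. The Hspd1, Hspe1 and Hsph1 median was 0.143 with normexp and 0.147 within slide 2. The Dnaja median was 0.0226 within slide 1, and that of Dnajc was 0.0501 within slide 1, 0.0486 within slide 2 and 0.0875 with the brightest probe of each gene. Signs turned for 6 of the named probes. Hsph1 was at 0.00331 with normexp, 0.0801 with median scaling, 0.00770 with slide as a block, 0.239 within slide 2, 0.125 with weights and 0.187 in the authors' values (0.158 there without OV replicate 3), and at −0.107 to 0.158 with one array left out. Hspb8 was at −0.00673 with normexp and at −0.0319 to 0.170 with one array left out, and Hspb6 at −0.0116 to 0.128. Hspa4 was at −0.0777 within slide 2 and −0.0220 with weights, Hsp90aa1 at −0.0696 and −0.0641, and the brightest Hspa8 probe at 0.176 with quantile scaling. The cause was not tested. With the replicate block (numbers 1, 2, 3 and 5) 0 members passed the adjusted threshold, so it changed no call. The 7 member genes without a tested probe were above background on 0 to 2 arrays, and the data do not bear on them.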
